A study of Mus with 30 samples.

Results

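The transcripts described here are the complex I subunits encoded by the mitochondrial genome, measured by RNA-seq in the hearts of mice with angiotensin II (Ang II) hypertension and in hearts of treated and Control mice. They were chosen by 7 Ensembl transcript identifiers, namely ENSMUST00000082392 (mt-Nd1), ENSMUST00000082396 (mt-Nd2), ENSMUST00000082411 (mt-Nd3), ENSMUST00000084013 (mt-Nd4l), ENSMUST00000082414 (mt-Nd4), ENSMUST00000082418 (mt-Nd5) and ENSMUST00000082419 (mt-Nd6). Of these 7, the 6 other than mt-Nd4l were present in every one of 30 tables, out of 36503 identifiers in all and 28298 in every table. The identifier of mt-Nd4l was found in no table used here, so mt-Nd4l has no value.

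All 30 mice were C57BL/6, with 5 mice in each of 6 groups. The AngII+ETH, AngII+BAI and AngII+GAS groups received Ang II at 500 ng/kg/min for 28 days together with Ethoxysanguinarine, Baicalin or Gastrodin at 5 mg/kg/day. The AngII+VAL group received the same infusion with Valsartan, a blocker of the Ang II receptor, at 10.4 mg/kg/day. AngII mice received Ang II with saline as treatment, and Control mice received saline as both infusion and treatment. The study's methods describe the Control, AngII and AngII+GAS mice as young adult males, and state that the left portion of a heart cut lengthwise was sequenced. Each value is therefore a mixture of all cell types in that portion.

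Complex I, the NADH dehydrogenase of the respiratory chain, passes electrons from NADH to ubiquinone and pumps protons across the inner mitochondrial membrane. Its hydrophobic core subunits are encoded in the mitochondrion and all other subunits in the nucleus, and cardiac muscle depends heavily on it for ATP. The mitochondrial genes are read as long transcripts that are cut at the tRNAs lying between them. ND6 lies on the opposite strand to the other complex I genes. Copies of mitochondrial sequence also lie in the nuclear genome of the mouse, so a read from such a gene may match several annotated transcripts.

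On chromosome MT of GRCm38, the assembly that mm10 names, RefSeq places ND1 at 2751 to 3707, ND2 at 3914 to 4951 and ND3 at 9459 to 9806. ND4L lies at 9877 to 10173 and ND4 at 10167 to 11544, and these 2 genes share 7 bases. ND5 lies at 11742 to 13565 and ND6 at 13552 to 14070, with 14 bases in common. These 7 are among the 13 protein-coding genes of the chromosome. The labels name a library kit and give no strand setting for the quantification. Where strand is not kept, reads of mt-Nd6 cannot be told apart from RNA of the opposite strand, and reads in the shared bases belong to either gene.

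By their range over the 30 hearts, the 6 measured transcripts fell into a steadier and an uneven set, with mt-Nd6 less steady than mt-Nd3. The level of mt-Nd3, a small subunit beside the ubiquinone-binding region, lay between 4812 and 10961 FPKM over the 30 hearts, which is a 2.28-fold range with a coefficient of variation of 15.5%. That of mt-Nd6, a subunit of the same part of the membrane arm, lay between 82.1 and 397 FPKM, a 4.84-fold range with a coefficient of variation of 41.4%. FPKM here is a value scaled for transcript length and library size, as which the deposited values were read. The remaining 4 were at very different levels in hearts of the same group. The highest value was 59561 times the lowest for mt-Nd1, 7488 times for mt-Nd2, 97995 times for mt-Nd4 and 398872 times for mt-Nd5. For each of these 4, at least 1 group held both low and high values, and the group means that are high rest on 1 or 2 mice. Whether the low and high values of these 4 follow the amount of their RNA in the heart was not tested.

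**Figure D1:**
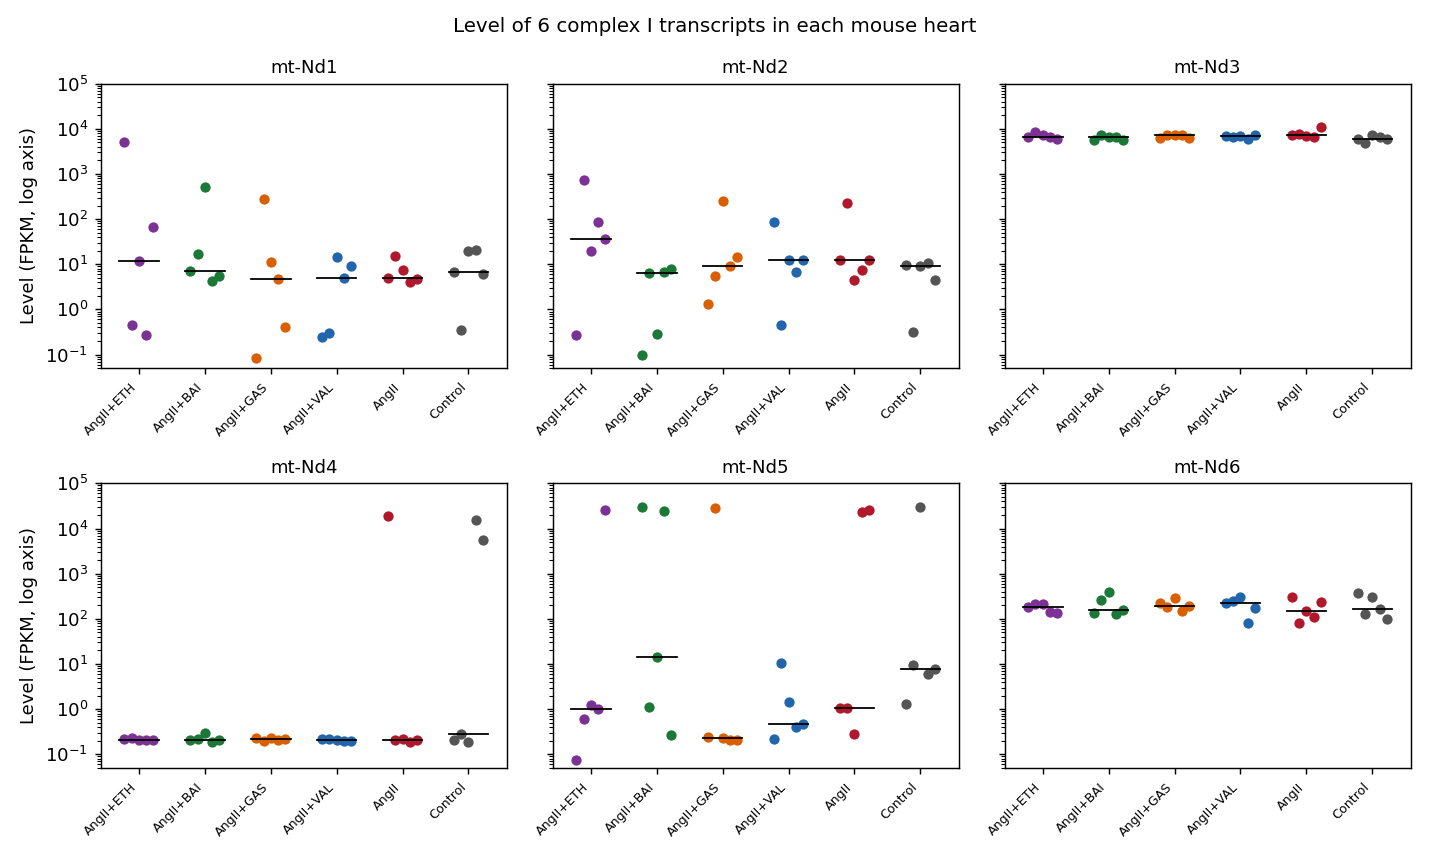
Level of the 6 complex I transcripts in each mouse heart, in FPKM on a log axis, by group along the horizontal axis. Each point is 1 of 5 mice and the black line is the group median. The points of mt-Nd3 lie between 4812 and 10961 FPKM in every group, whereas mt-Nd5 is at 22983 FPKM or more in 7 hearts and at 14.6 FPKM or less in the other 23.

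Single values of mt-Nd6 were 185, 217, 209, 141 and 134 FPKM in AngII+ETH, 137, 257, 397, 128 and 156 FPKM in AngII+BAI, and 228, 184, 283, 151 and 189 FPKM in AngII+GAS hearts. They were 224, 243, 303, 82.8 and 173 FPKM in AngII+VAL, 312, 82.1, 149, 112 and 242 FPKM in AngII, and 379, 127, 311, 163 and 101 FPKM in Control hearts. The highest value of each of AngII+BAI, AngII+VAL, AngII and Control lay above every AngII+ETH and AngII+GAS value, and all 6 groups overlapped. The values below 100 FPKM were those of AngII+VAL mouse 5124 and AngII mouse 5128.

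The deposited value of mt-Nd5, one of the antiporter-like proton-pumping subunits of the membrane arm, was close to all or none. Values in AngII+ETH hearts were 0.0765, 0.597, 1.21, 1.02 and 25775 FPKM. In AngII+BAI hearts they were 30510, 1.09, 14.6, 24267 and 0.262 FPKM, and in AngII+GAS hearts 0.242, 28691, 0.228, 0.205 and 0.211 FPKM. The same division was present without any drug.

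AngII+VAL hearts held 0.218, 10.8, 1.44, 0.410 and 0.474 FPKM of mt-Nd5. AngII hearts held 1.07, 1.05, 0.279, 22983 and 26072 FPKM, against 1.30, 9.45, 30404, 6.08 and 7.87 FPKM in Control hearts. No heart had a value between 14.6 and 22983 FPKM. High values were found in 1 AngII+ETH, 2 AngII+BAI, 1 AngII+GAS, 0 AngII+VAL, 2 AngII and 1 Control heart.

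For mt-Nd4, another antiporter-like pump subunit, 27 of 30 hearts had between 0.189 and 0.296 FPKM. The other 3 had 18557 FPKM (AngII mouse 5143), 15178 FPKM (Control mouse 5193) and 5616 FPKM (Control mouse 5153). The 20 hearts of the drug-treated groups were thus all in the low range, as were 4 of 5 AngII and 3 of 5 Control hearts. Too few hearts reached 1 FPKM for the test used here. Without that filter, the log2 difference of mt-Nd4 lay between -2.76 (AngII+BAI) and -2.78 (AngII+VAL) in the 4 drug groups against AngII, with limma adjusted p of 0.793 to 0.879, and was -2.39 for AngII against Control (adjusted p = 0.849). The 4 drug group differences share the AngII hearts and rest on mouse 5143 alone. The other AngII hearts had 0.190 to 0.218 FPKM, and the ratios of group medians to that of AngII were 0.98 to 1.05. No unfiltered fit left out this mouse.

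The level of mt-Nd1, the subunit at the junction of the membrane and peripheral arms, was low in most hearts, with a median of 6.46 FPKM over the 30. It reached 5094 FPKM in AngII+ETH mouse 5141, 512 FPKM in AngII+BAI mouse 5113 and 282 FPKM in AngII+GAS mouse 5158, and was at 65.3 FPKM or less in the other 27. In 7 hearts it was under 1 FPKM. It ranged from 0.277 to 5094 FPKM in AngII+ETH, 4.19 to 512 FPKM in AngII+BAI, 0.0855 to 282 FPKM in AngII+GAS and 0.240 to 14.6 FPKM in AngII+VAL hearts. The values in AngII hearts lay between 3.97 and 15.4 FPKM, inside the range of 0.347 to 21.2 FPKM in Control hearts.

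The level of mt-Nd2, an antiporter-like subunit as well, had a median of 9.19 FPKM over the 30 hearts. It exceeded 100 FPKM in AngII+ETH mouse 5164 (745 FPKM), AngII+GAS mouse 5120 (251 FPKM) and AngII mouse 5128 (228 FPKM). In 5 hearts it was under 1 FPKM, and none of these was an AngII or AngII+GAS heart. It ranged from 0.269 to 745 FPKM in AngII+ETH, 0.0995 to 8.06 FPKM in AngII+BAI, 1.32 to 251 FPKM in AngII+GAS, 0.441 to 86.1 FPKM in AngII+VAL, 4.40 to 228 FPKM in AngII and 0.320 to 10.8 FPKM in Control hearts. Values over 100 FPKM of mt-Nd1 and of mt-Nd2 were therefore found in different mice.

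Of mt-Nd1, mt-Nd2, mt-Nd4 and mt-Nd5, at most 1 reached 1000 FPKM in any heart. This was the case in 11 of 30 hearts, namely 2 of AngII+ETH, 2 of AngII+BAI, 1 of AngII+GAS, 0 of AngII+VAL, 3 of AngII and 3 of Control. In the other 19 hearts none of the 4 reached it. Uneven levels were not limited to complex I. Of 73 identifiers that reached 1000 FPKM in any heart and were in every table, 42 were under 100 FPKM in at least 1 heart and 27 were under 1 FPKM. Among the 4 complex I members that reached 1000 FPKM, only mt-Nd3 stayed above 1 FPKM in every heart. The sources used here do not state how reads matching several transcripts were divided, and the part of this step in these values was not tested.

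As a share of the library, meaning the sum of all values of a heart, mt-Nd3 made up 1.10 ± 0.15% over the 30 hearts (SD) and mt-Nd6 made up 0.0321 ± 0.0130%. The 6 transcripts together took between 0.829% and 6.26% of a library. This share had a median of 1.497% in AngII+ETH, 1.23% in AngII+BAI, 1.14% in AngII+GAS, 1.11% in AngII+VAL, 4.21% in AngII and 1.98% in Control hearts. The medians of AngII and Control were those of hearts with a high mt-Nd4 value. With mt-Nd3 and mt-Nd6 alone, the shares were 1.18 ± 0.12%, 1.08 ± 0.07%, 1.14 ± 0.08%, 1.12 ± 0.05%, 1.28 ± 0.27% and 1.02 ± 0.13% (SD, n = 5 each) in the same order of groups. In AngII+VAL hearts, where each of the 4 uneven members was under 100 FPKM, the total lay between 1.05% and 1.18%.

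**Figure D2:**
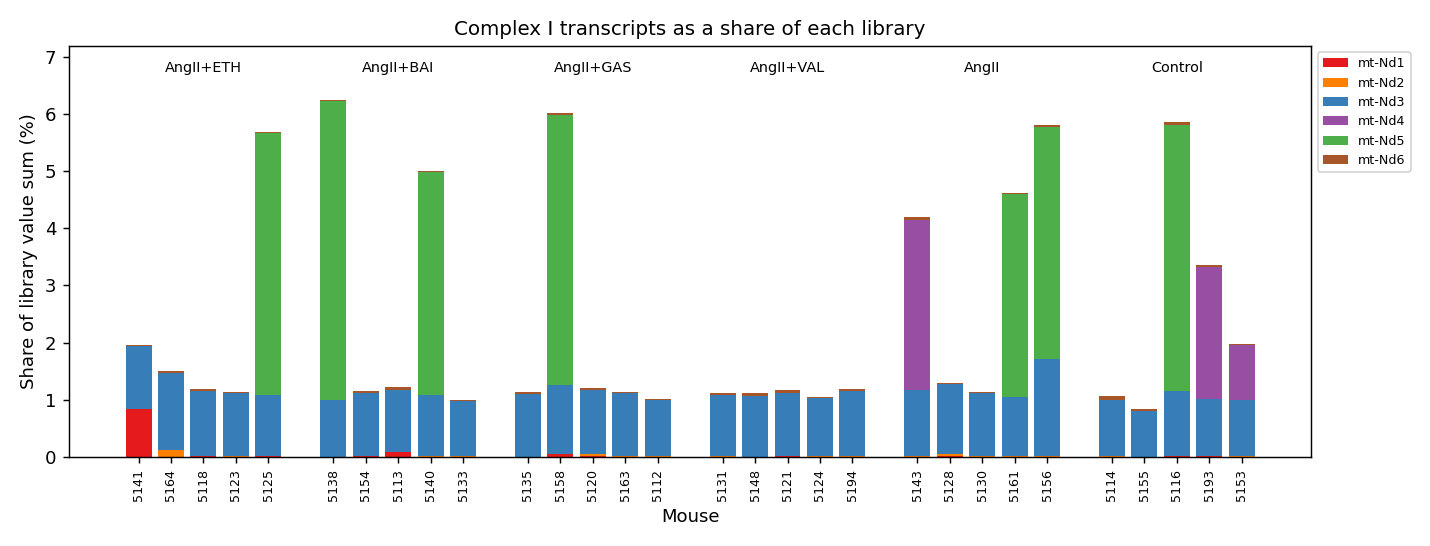
Share of the library value sum (vertical axis, %) taken by each of the 6 complex I transcripts in each mouse (horizontal axis), as stacked bars ordered by group. The mt-Nd3 segment lies between 0.806% and 1.71% in all 30 bars, and the 11 bars with a further tall segment are those of hearts with mt-Nd1, mt-Nd4 or mt-Nd5 at 1000 FPKM or more.

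To compare the groups, each transcript was tested with limma, a linear model with moderated variances, on log2(FPKM + 1), and p-values were adjusted over all transcripts tested. In the comparison of all 6 groups, 0 of the 5 complex I transcripts tested passed an adjusted p under 0.05, and 0 had an unadjusted p under 0.05. The background was 0.157% of 24844 transcripts at adjusted p and 9.49% at unadjusted p. The smallest p was that of mt-Nd3 (limma, adjusted p = 0.624), and mt-Nd6 had an adjusted p of 0.991. In whole tissue, fewer cells of a type and less RNA per cell cannot be told apart.

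The first comparison asks whether Ang II infusion changed the level of these transcripts. In AngII hearts mt-Nd3 was at 7172, 7651, 6947, 6749 and 10961 FPKM, against 6073, 4812, 7434, 6546 and 5836 FPKM in Control hearts. The highest AngII value, of mouse 5156, stood apart, and 2 of 5 AngII values lay above every Control value while the groups overlapped. The means were 7896 ± 1746 FPKM in AngII and 6140 ± 962 FPKM in Control hearts (SD, n = 5 each), with a log2 fold change of 0.35 (standard error 0.15, 95% interval 0.01 to 0.70). It did not pass after adjustment (limma, adjusted p = 0.537, and 0.216 to 0.699 over the alternatives). The unadjusted p, under 0.05 here, was above 0.05 in 7 of 10 fits that left out a mouse and in 2 of 8 other settings. The log2 fold change was 0.23 without AngII mouse 5156 and 0.71 after quantile normalization.

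In this comparison 0 of the 5 members tested passed at adjusted p (limma), against 0.0381% of 18354 transcripts, and 1, mt-Nd3, had an unadjusted p under 0.05, against 9.13%. The level of mt-Nd6 was 179 ± 95.5 FPKM in AngII and 216 ± 122 FPKM in Control hearts (SD, n = 5 each), a log2 fold change of -0.25 (95% interval -1.27 to 0.77, limma adjusted p = 0.899). The log2 fold change was -0.11 for mt-Nd1, 1.52 for mt-Nd2 and 1.23 for mt-Nd5, with adjusted p between 0.697 and 0.974 from limma. That of mt-Nd2 was 0.60 without AngII mouse 5128 and 0.96 without Control mouse 5155. The 95% interval of mt-Nd5 ran from -7.16 to 9.61 on this scale, against 0.01 to 0.70 for mt-Nd3.

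The remaining comparisons ask whether a drug given with Ang II changed these levels relative to Ang II alone. They share the AngII mice, mouse 5156 included, so they are not independent of each other. In none of them did a complex I transcript pass at adjusted p or, in the setting used here, at an unadjusted p under 0.05 (limma, 5 tested in each). Without AngII mouse 5156 the log2 fold change of mt-Nd3 against AngII was -0.024 for AngII+ETH, -0.16 for AngII+BAI, -0.049 for AngII+GAS and -0.073 for AngII+VAL. The values with all mice, given below, were at least 1.5 times as large.

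In AngII+ETH hearts mt-Nd3 was at 6663, 8490, 7448, 6661 and 6004 FPKM, with a mean of 7053 ± 952 FPKM against 7896 ± 1746 FPKM in AngII hearts (SD, n = 5 each). The ranges overlapped, with a log2 fold change of -0.15 (95% interval -0.47 to 0.17, limma adjusted p = 0.814), which was -0.093 without AngII+ETH mouse 5125. For mt-Nd6 the means were 177 ± 38.4 FPKM in AngII+ETH and 179 ± 95.5 FPKM in AngII hearts, a log2 fold change of 0.12 (95% interval -0.65 to 0.89, limma adjusted p = 0.957). Members passing at adjusted p (limma) were 0 of 5, against 0.132% of 18242 transcripts, and at unadjusted p 0 of 5, against 8.29%. The log2 fold change of mt-Nd1 was 1.68 with a standard error of 2.01, and without AngII+ETH mouse 5141 it was -0.25 (limma).

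In AngII+BAI hearts mt-Nd3 was at 5719, 7214, 6743, 6680 and 5625 FPKM. The mean was 6396 ± 694 FPKM in AngII+BAI and 7896 ± 1746 FPKM in AngII hearts (SD, n = 5 each), with a log2 fold change of -0.29 (95% interval -0.59 to 0.02, limma adjusted p = 0.533). The smallest p of this comparison was that of mt-Nd2. It was at 0.0995, 6.33, 0.284, 6.64 and 8.06 FPKM in AngII+BAI hearts, against 12.2, 228, 4.40, 7.59 and 12.5 FPKM in AngII hearts. No AngII+BAI heart reached the AngII median of 12.2 FPKM, and the ranges overlapped between 4.40 and 8.06 FPKM. The log2 fold change was -2.27 (95% interval -4.62 to 0.07, limma adjusted p = 0.524), and it was -1.36 without AngII mouse 5128. Under the alternatives, mt-Nd2 had an unadjusted p under 0.05 in 3 of 18 fits and mt-Nd3 in 2 of 18.

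The mt-Nd6 means were 215 ± 114 FPKM in AngII+BAI and 179 ± 95.5 FPKM in AngII hearts (SD, n = 5 each), a log2 fold change of 0.28 (95% interval -0.66 to 1.23, limma adjusted p = 0.877). Passing members were 0 of 5 at adjusted p, against 0.0165% of 18140 transcripts, and 0 of 5 at unadjusted p, against 9.75%. The log2 fold change of mt-Nd5 was 0.65, and it was below 0 without AngII+BAI mouse 5138 or 5140 or without AngII mouse 5143, 5128 or 5130.

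In AngII+GAS hearts mt-Nd3 was at 6300, 7377, 7210, 7193 and 6408 FPKM, a 1.17-fold range against 1.62-fold in AngII hearts. The AngII range rests on mouse 5156 at 10961 FPKM, with the other AngII hearts at 6749 to 7651 FPKM. A range of 1.21-fold was found in AngII+VAL, 1.28-fold in AngII+BAI and 1.41-fold in AngII+ETH hearts. The mean was 6898 ± 503 FPKM in AngII+GAS and 7896 ± 1746 FPKM in AngII hearts (SD, n = 5 each), with a log2 fold change of -0.17 (95% interval -0.46 to 0.11, limma adjusted p = 0.852). The level of mt-Nd6 was 207 ± 50.2 FPKM in AngII+GAS and 179 ± 95.5 FPKM in AngII hearts, a log2 fold change of 0.34 (95% interval -0.44 to 1.12, limma adjusted p = 0.877). Members passing were 0 of 5 at adjusted p, against 0.022% of 18155 transcripts, and 0 of 5 at unadjusted p, against 6.21%. An increase of mt-Nd6 by more than 1.12 or a decrease by more than 0.44 on the log2 scale lay outside the interval.

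In AngII+VAL hearts mt-Nd3 was at 6916, 6625, 7036, 6042 and 7306 FPKM. The mean was 6785 ± 482 FPKM in AngII+VAL and 7896 ± 1746 FPKM in AngII hearts (SD, n = 5 each), with a log2 fold change of -0.20 (95% interval -0.48 to 0.09, limma adjusted p = 0.871). For mt-Nd6 the means were 205 ± 82.6 FPKM in AngII+VAL and 179 ± 95.5 FPKM in AngII hearts, a log2 fold change of 0.24 (95% interval -0.72 to 1.20, limma adjusted p = 0.942). The smallest p was that of mt-Nd5, whose values are given above, with a log2 fold change of -5.08 (95% interval -11.99 to 1.82, limma adjusted p = 0.856). It was -3.04 without AngII mouse 5161 and -2.995 without AngII mouse 5156. Passing members were 0 of 5 at adjusted p, against 0.022% of 18196 transcripts, and 0 of 5 at unadjusted p, against 6.23%.

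**Figure D3:**
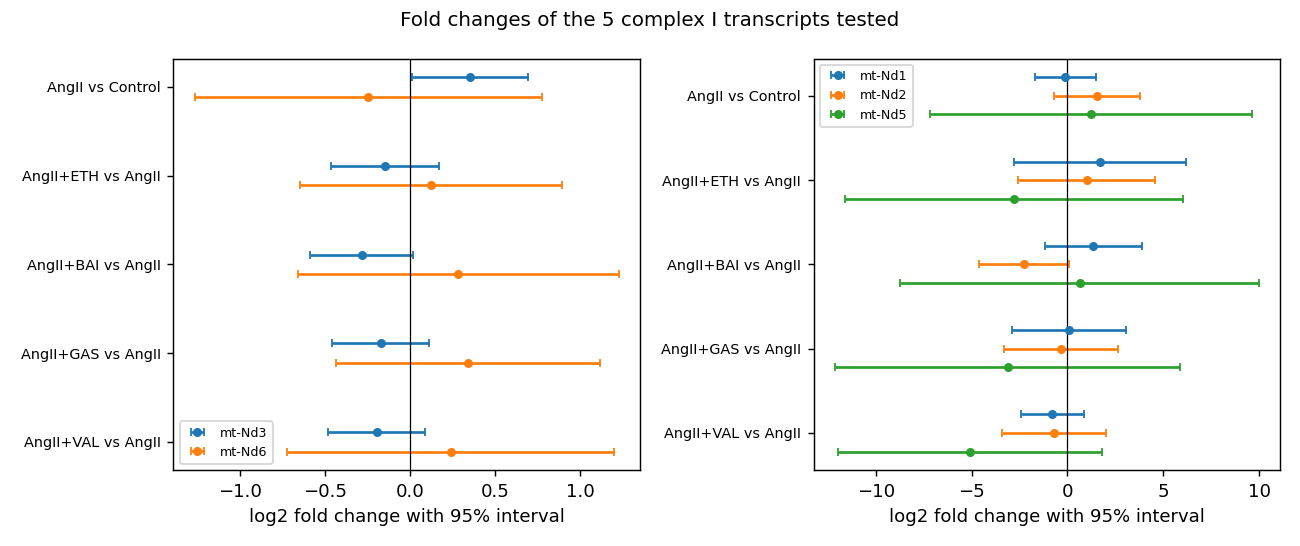
Log2 fold change (horizontal axis) of the 5 complex I transcripts tested in each of 5 comparisons (vertical axis), with the 95% interval from limma. The left panel shows mt-Nd3 and mt-Nd6 and the right panel mt-Nd1, mt-Nd2 and mt-Nd5 on a wider scale. Only the interval of mt-Nd3 in AngII against Control lies on one side of 0 (0.01 to 0.70).

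By mean level of mt-Nd3, AngII was followed by AngII+ETH, AngII+GAS, AngII+VAL, AngII+BAI and Control. Each pair of neighbours in this order differed by less than the smaller of their SDs. Ordering by the mean itself brings neighbours close, so this does not compare groups further apart, such as AngII and Control. For mt-Nd6 the group means lay between 177 FPKM in AngII+ETH and 216 FPKM in Control hearts, and every neighbour again differed by less than the smaller SD. Over all 5 comparisons and 6 measured members, 0 of 30 pairs of groups were free of overlap. Groups did not overlap for 2.26% of transcripts tested in AngII against Control, and against AngII for 2.18% with AngII+ETH, 2.86% with AngII+BAI, 1.43% with AngII+GAS and 1.33% with AngII+VAL.

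The median log2 fold change of the 5 members tested was 0.35 in AngII against Control, against -0.01 over all transcripts tested. It was 0.12 for AngII+ETH, 0.28 for AngII+BAI, -0.17 for AngII+GAS and -0.69 for AngII+VAL against AngII, where all transcripts had medians between -0.05 and -0.01. With 5 members, each median is the value of a single member and not a shift of the set. That member was mt-Nd3 in AngII against Control and in AngII+GAS, mt-Nd6 in AngII+ETH and AngII+BAI, and mt-Nd2 in AngII+VAL. The mt-Nd2 value in AngII+VAL was 0.22 without AngII mouse 5128 and 0.044 without AngII+VAL mouse 5148. A comparison list of 6 further identifiers, whose numbers lie in the same run as those of the members, gave 0 calls at adjusted p in any of the 5 comparisons (limma, 4 to 6 tested) and 1 at unadjusted p, in AngII+VAL. Its medians were -0.19 for AngII against Control, and against AngII 0.22 for AngII+ETH, -0.06 for AngII+BAI, 0.03 for AngII+GAS and 0.09 for AngII+VAL. Of these 6, ENSMUST00000082402 and ENSMUST00000082405 varied 2.31-fold and 2.92-fold over the 30 hearts, and the other 4 varied at least 6171-fold. Steady and uneven identifiers were thus found in this list as well.

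In abundance mt-Nd3 ranked between place 7 and place 12 of all identifiers in every heart, and mt-Nd6 between place 66 and place 470. The highest member was mt-Nd3 in 21 hearts, mt-Nd5 in 7 and mt-Nd4 in 2. The ratio of mt-Nd3 to mt-Nd6 within a heart, which does not depend on library scaling, was 40.6 ± 5.27 in AngII+ETH, 35.0 ± 13.4 in AngII+BAI, 34.9 ± 9.05 in AngII+GAS, 39.3 ± 20.1 in AngII+VAL, 53.7 ± 25.8 in AngII and 35.2 ± 16.1 in Control hearts (SD, n = 5 each). The group ranges overlapped, and AngII mouse 5128 held the highest ratio, 93.2.

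The pattern over the 30 hearts was then compared with that of 19465 other transcripts, by Pearson's r of log2(FPKM + 1) as a description. The mean of the 6 members, each centred over the hearts, was most like ENSMUST00000045682 (r = 0.63), ENSMUST00000178657 (r = 0.62), ENSMUST00000099525 (r = 0.59), ENSMUST00000117679 (r = 0.59) and ENSMUST00000196223 (r = 0.58), each with a mean of 7.33 FPKM or less. They are the highest of 19465 values of r over 30 hearts, a choice that by itself favours a high r. The members themselves followed their own mean unevenly, with mt-Nd5 at r = 0.73 and mt-Nd6 at r = 0.02. Each member is part of that mean and was not scaled to equal spread. A member with a wide spread, such as mt-Nd5, therefore carries more weight in it. These hearts share the library scaling, and the files do not pair the identifiers with gene names.

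Taken singly, mt-Nd3 was followed closely by ENSMUST00000188299 (r = 0.93, 30 hearts), which was chosen after its values were seen. This transcript had a mean of 6278 FPKM, and the ratio of mt-Nd3 to it lay between 1.02 and 1.26 in every heart, with a mean of 1.09 ± 0.06 (SD). In AngII mouse 5156, the heart with the highest mt-Nd3 level, it was at 10409 FPKM. Whether reads of mt-Nd3 were shared with this transcript was not tested. As this transcript was chosen for its likeness to mt-Nd3 over these same hearts, its high value in mouse 5156 is no independent support for the mt-Nd3 value.

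**Figure D4:**
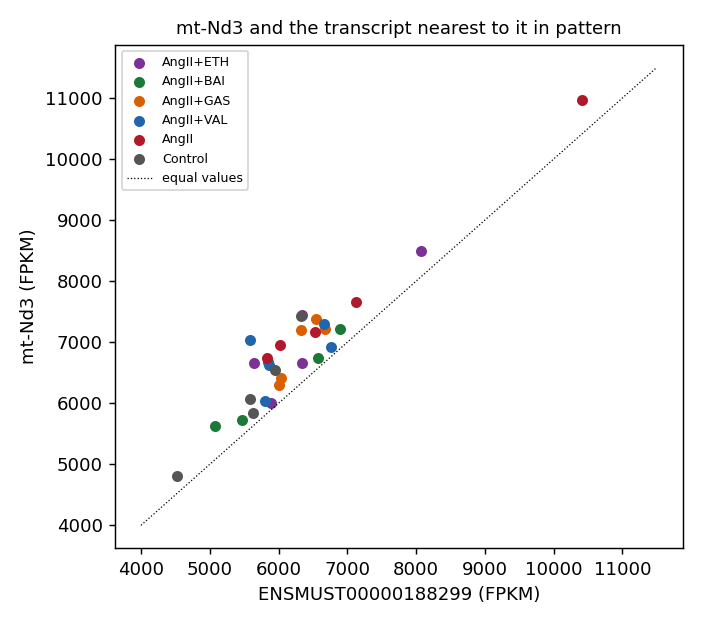
Level of mt-Nd3 (vertical axis, FPKM) against that of ENSMUST00000188299 (horizontal axis, FPKM) in each of the 30 hearts, coloured by group. The dotted line marks equal values. The points lie just above that line, with ratios of 1.02 to 1.26, and AngII mouse 5156 is at the upper right.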

How the data were processed

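For each of the 30 mice the authors deposited a table of transcript values, treated here as FPKM that they had scaled for length and library size, because they are not whole numbers and do not sum to a fixed total (562189 to 654188 per mouse). No source used here states the unit, aligner, quantifier or annotation. The build mm10 and limma are named in the submitters' processing notes, and ribosomal RNA had been depleted. No counts were recovered, so the depth per mouse is unknown and precision rests on 5 mice per group. Each library comes from its own mouse by the labels.

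limma 3.58.1 (R 4.3.3) was run two-sided on log2(FPKM + 1) with its trend option, using only the libraries compared. Transcripts had to reach 1 FPKM in 5 or more of these libraries, and Benjamini-Hochberg adjustment ran over all that did. The script was tested on simulated data with normally distributed log2 values. That test does not cover values that are close to all or none, such as those of mt-Nd4 and mt-Nd5. Figures were drawn with matplotlib 3.10.9. Alternatives were a pseudocount of 0.1, unfiltered values, a minimum mean of 5, 3 scalings, no trend, 1 fit of all groups and leaving out each mouse.

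The members and lists were chosen with earlier results of these data known. All 7 members are named, with single values at least for the member with the smallest p of each comparison, as are the 5 transcripts most like the members' mean. Coordinates come from RefSeq (GRCm38.p6). As 0 of its rows hold an Ensembl identifier, nuclear complex I genes, mitochondrial RNA factors and cell type markers were not analysed here, and the tissue label was not checked against markers.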

Additional observations from a re-analysis of the deposited data

Results flagged for a closer look

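Of 36 checks of a member within a group of 5, 14 found a mouse far from the rest of its group. The check used untransformed FPKM, and its nominal rate of 1 in 20 assumes normally distributed values. Some members were close to all or none, so that rate does not apply and the count is a description only. All 14 were the highest value of their group.

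For mt-Nd5 these were AngII+ETH mouse 5125 at 25775 FPKM (others up to 1.21), AngII+GAS mouse 5158 at 28691 FPKM (others up to 0.242), AngII+VAL mouse 5148 at 10.8 FPKM (others up to 1.44) and Control mouse 5116 at 30404 FPKM (others up to 9.45). For mt-Nd4 they were AngII mouse 5143 at 18557 FPKM (others up to 0.218) and AngII+BAI mouse 5113 at 0.296 FPKM (others up to 0.221).

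For mt-Nd1 they were AngII+ETH mouse 5141 at 5094 FPKM, AngII+BAI mouse 5113 at 512 FPKM and AngII+GAS mouse 5158 at 282 FPKM. For mt-Nd2 they were AngII+ETH mouse 5164 at 745 FPKM, AngII+GAS mouse 5120 at 251 FPKM, AngII+VAL mouse 5131 at 86.1 FPKM and AngII mouse 5128 at 228 FPKM. For mt-Nd3 it was AngII mouse 5156 at 10961 FPKM (others 6749 to 7651). AngII+GAS mouse 5158 and AngII+BAI mouse 5113 stood apart for more than 1 member. The mt-Nd4 value of mouse 5113, 0.296 FPKM, still belongs to the low range of 27 hearts. No value of mt-Nd6 stood apart. The cause was not tested.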

How the results depend on the processing

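The number of members at an adjusted p under 0.05 was 0 in each comparison under every alternative run, with each mouse left out included. At unadjusted p, the test of all 6 groups had mt-Nd3 under 0.05 in 2 of 37 fits and mt-Nd2 in 1 of 37. Fits without a filter, with a minimum mean of 5, without trend or with all groups together keep the same group means. Their fold changes could not differ from those of the setting used here. Of 200 fold changes under other settings, these included, 3 changed direction, all of mt-Nd1. With a pseudocount of 0.1 it was 0.10 in AngII against Control and -0.59 in AngII+GAS against AngII, and rescaled to a sum of 1000000 per library it was -0.082 in AngII+GAS against AngII. That of mt-Nd3 kept its direction in all of them and with each mouse left out, while its size moved by over 1.5 times in 11 of those 90 fits. These were the 5 without AngII mouse 5156, that of AngII+ETH against AngII without AngII+ETH mouse 5125, and the 5 after quantile normalization, which gave 0.71 for AngII against Control and, against AngII, -0.32 for AngII+ETH, -0.44 for AngII+BAI, -0.43 for AngII+GAS and -0.68 for AngII+VAL.

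With 1 mouse left out, 25 of 245 fold changes changed direction, in 11 of 25 pairs of member and comparison. In AngII against Control the values ranged from -0.76 to 0.25 for mt-Nd1, -0.86 to 3.68 for mt-Nd5 and -0.49 to 0.0013 for mt-Nd6. In AngII+ETH against AngII they ranged from -0.25 to 2.74 for mt-Nd1, -0.090 to 2.21 for mt-Nd2 and -0.12 to 0.36 for mt-Nd6. Against the same AngII mice, they ranged from -1.34 to 2.73 for mt-Nd5 in AngII+BAI, from -1.22 to 0.79 for mt-Nd1 and -1.38 to 0.58 for mt-Nd2 in AngII+GAS, and from -1.44 to 0.22 for mt-Nd2 and -0.00015 to 0.53 for mt-Nd6 in AngII+VAL. Fold changes that changed direction or moved by over 1.5 times came to 34 of 50 fits for mt-Nd6, 26 of 45 for mt-Nd5, 25 of 50 for mt-Nd1 and 18 of 50 for mt-Nd2. The mice whose removal changed a direction were AngII+ETH mice 5141 and 5164, AngII+BAI mice 5138 and 5140, AngII+GAS mice 5135, 5158 and 5120, AngII+VAL mouse 5148, all 5 AngII mice and Control mice 5114, 5116 and 5193. In AngII+GAS against AngII, mt-Nd5 was tested in 5 of the 10 fits that leave out a mouse. Without AngII mouse 5143, 5128, 5161 or 5156 or AngII+GAS mouse 5158, too few libraries reached 1 FPKM for the filter. The fold change without mouse 5158, the AngII+GAS heart at 28691 FPKM, is therefore not known. The cause of the changes in direction was not tested. For mt-Nd3 in AngII against Control the adjusted p lay between 0.216 and 0.699 over all alternatives (limma). No paired analysis was possible because nothing in the labels links mice across groups.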
